A study of Mus musculus with 2 samples.

Results

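The genes described here are the fibroblast growth factor (FGF) ligands, their receptors and the genes that FGF signalling switches on to restrain or carry it, 35 of the 32245 gene symbols in the feature table. They were taken by name: every Fgf gene with a number, Fgfr1 to Fgfr4, Spry1 to Spry4, Dusp6, Etv4, Etv5, Spred1 and Spred2. By role they are 15 secreted ligands, 3 endocrine ligands (Fgf15, Fgf21 and Fgf23), 4 FGF homologous factors that stay inside the cell (Fgf11 to Fgf14), 4 receptors and 9 feedback genes. All but 1 had at least 20 molecules (unique molecular identifiers, UMIs) over the cells that passed the filter, the exception being Fgf4 with 13 UMIs.

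Single-cell RNA sequencing was done on mouse embryos at E13.5 with 1 library per genotype. The control embryos carried Isl1-Cre and R26R-eYFP. The mutant embryos carried both of these and Pik3caH1047R, an activating form of the catalytic subunit of PI3-kinase that Cre switches on. For each library 3 eYFP-positive embryos were pooled, the body above the liver was dissociated, and eYFP-positive cells were sorted. Cre from the Isl1 locus marks the cardiopharyngeal mesoderm and its descendants, but also other cells that have passed through an Isl1-expressing state, and the sorted cells included neurons, epithelium and liver precursors (hepatoblast-like, 0 control and 46 mutant cells) although the labels give the tissue as pharyngeal arch. Every value below compares 2 libraries, so there is no replicate, no test between genotypes, and genotype cannot be told apart from litter, sex, dissection or library. The intervals given cover counting error only.

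FGFs are secreted proteins that bind receptor tyrosine kinases of the Fgfr family with heparan sulphate as a helper, and the endocrine members travel in the blood and need a Klotho co-receptor. The bound receptor passes its signal through the adaptor Frs2 to the Ras-ERK cascade and to PI3-kinase. ERK activity in turn induces the transcription factors Etv4 and Etv5, the ERK phosphatase Dusp6, and the Sprouty and Spred proteins, which damp the cascade. In the pharyngeal region FGFs from epithelium and mesoderm guide outgrowth of the arches, Fgf10 from mesenchyme drives branching of the lung, and Fgfr4 marks muscle progenitors.

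The control library held 2783 cells that passed the filter (above 2000 genes, below 9000, mitochondrial share under 10%), with a median of 20412 UMIs, and the mutant library held 3489 such cells with a median of 16839. Only 12 cell barcodes occurred in both libraries. Of the control cells 95.5% expressed Xist without Y-linked genes (female-like), against 33.6% of the mutant cells, while 53.3% of the mutant cells were male-like, so the mutant pool held embryos of both sexes. Clusters were named from marker genes, and 7 classes had at least 50 cells in each library: EC-like (endothelial, 148 control and 698 mutant cells), mesenchyme-like (993 and 681), branchial muscle-like (886 and 838), epithelium-like (212 and 305), neuron-like (193 and 468), cardiomyocyte-like (54 and 184) and mesothelium-like (70 and 67). In their clusters 18 of 18 endothelial, 16 of 16 epithelial, 13 of 13 cardiomyocyte and 11 of 11 mesothelial markers were raised, with 14 or 15 of 16 for neurons, 6 to 15 of 16 for mesenchyme and 6 to 13 of 16 for muscle. Genes that respond to low oxygen were higher in the mutant library, with 10 of the 10 listed called in each of the EC-, mesenchyme-, muscle- and epithelium-like classes, 9 in mesothelium-, 5 in neuron- and 4 in cardiomyocyte-like cells, and of 6 heat shock genes between 2 and 5 were called higher in each class. The part of hypoxia, heat shock and sex in the differences below was not tested, other than by the female-like and male-like values given.

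Levels are given as CPM, the UMIs of a gene per 1000000 UMIs of its class and library. The kit tags each molecule once, so CPM was not divided by gene length. Whether reads from introns add to the counts of long genes was not tested. Gene counts do not separate the receptor splice forms. A member was called higher or lower where the 95% interval of the mutant over control ratio lay wholly beyond 1.5-fold, and the 2 libraries together held 20 UMIs or more in that class.

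**Figure D1:**
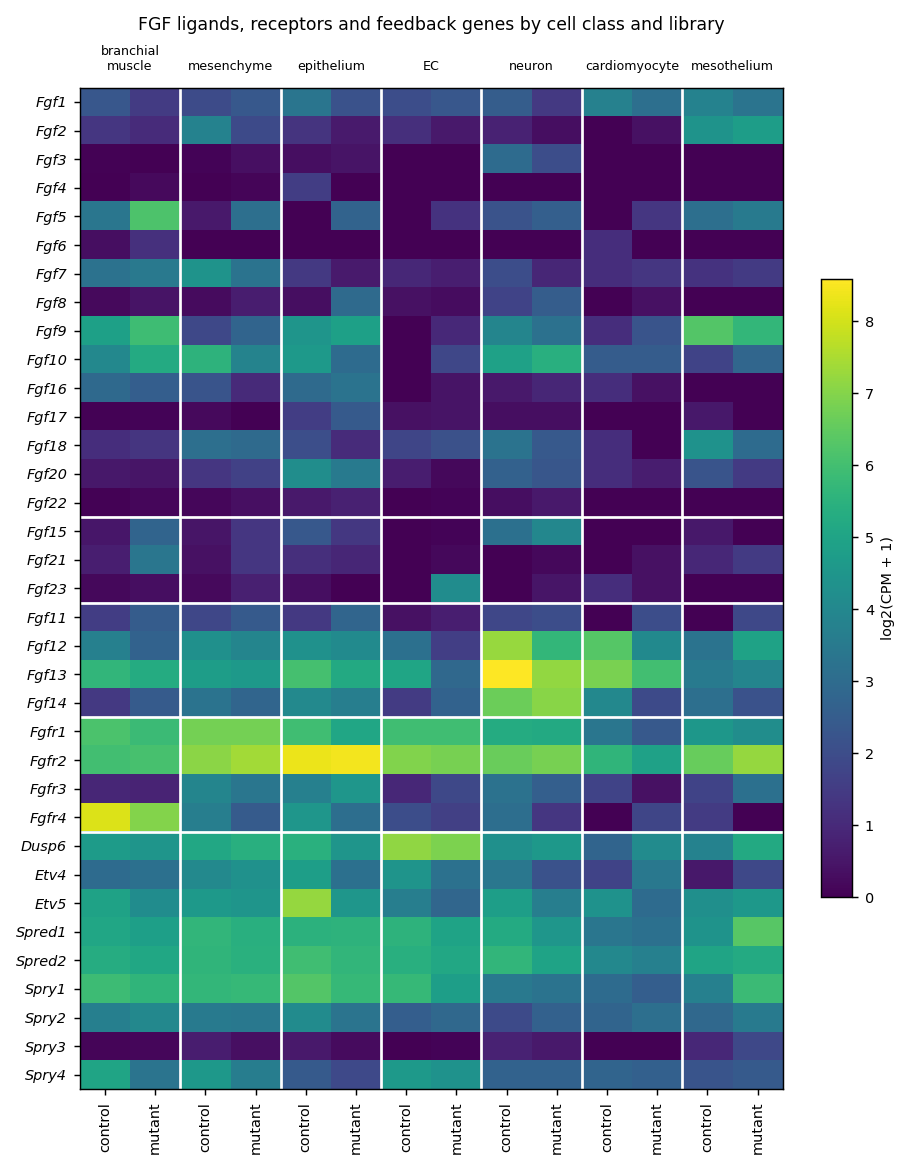
Level of the 35 members as log2(CPM + 1) by colour, in each of the 7 classes (column pairs) and both libraries (control left, mutant right), ordered by role with white lines between secreted ligands, endocrine ligands, FGF homologous factors, receptors and feedback genes. Fgfr2 was brightest in epithelium, Fgfr4 in muscle and Fgf13 in neurons, and Fgf23 was visible in the mutant EC column alone, at 16.8 CPM.

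Ligands showed distinct source classes in the control library. Fgf10 was highest in mesenchyme-like cells at 45.9 CPM, then in neuron-like (28.8) and epithelium-like (23.4) cells. Fgf9, an epithelial and mesothelial signal in the developing lung, was highest in mesothelium-like cells at 77.3 CPM, with 28.5 in muscle-like and 21.2 in epithelium-like cells. Fgf7, a mesenchymal ligand for epithelial receptors, was highest in mesenchyme-like cells at 20.3 CPM, and Fgf2 reached 20.2 CPM in mesothelium-like and 12.8 in mesenchyme-like cells. Fgf18 was highest in mesothelium-like cells at 19.8 CPM, followed by neuron-like (8.59) and mesenchyme-like (7.75) cells. Fgf20 was mainly epithelial (17.5 CPM), and within that class it was highest in an otic-like cluster of 35 control cells at 53.4 CPM. Fgf3 was found mainly in neuron-like cells, at 7.08 CPM in the control and 3.08 in the mutant library, but 22 of the 28 control UMIs came from 1 cell.

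EC-like cells of the control library held few ligand transcripts. Fgf5, Fgf9, Fgf10, Fgf16, Fgf21 and Fgf23 had 0 UMIs in 148 cells, where 3 counts would be a level of 0.920 CPM. The most abundant ligand there was Fgf1 with 3.07 CPM. By contrast EC-like cells expressed receptors and feedback genes, with Fgfr2 at 123 CPM, Fgfr1 at 60.4 and Dusp6 at 141 CPM, the highest Dusp6 level of the 7 classes. In these control cells the ligands were thus near the counting floor while Fgfr1 and Fgfr2 were well above it.

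Branchial muscle-like cells had the most members called higher of the 7 classes. Of 27 members tested in this class 8 were called higher and 4 lower in the mutant library, against 7.78% and 3.97% of all 15659 genes tested. The 8 were the ligands Fgf5, Fgf6, Fgf9, Fgf10, Fgf15 and Fgf21 and the intracellular factors Fgf11 and Fgf14, so 6 of the 11 ligands tested were higher and 0 lower.

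Fgf5, a ligand known for ending the growth phase of hair and expressed in the myotome of the embryo, went from 9.30 CPM in control to 72.3 CPM in mutant muscle-like cells. The log2 ratio was 2.96 (95% counting interval 2.75 to 3.17). With every cell thinned to 5000 UMIs, 4.13% of control and 25.3% of mutant muscle-like cells held a Fgf5 UMI, and at full depth 12.9% and 49.5%. For comparison, EC-like cells, which should lack muscle transcripts, held one in 0.601% of mutant cells after the same thinning, at median full depths of 16970.5 UMIs for EC-like and 22254 for muscle-like cells. The difference was present in both muscle progenitor clusters (11 to 81.9 and 11 to 64.6 CPM) and in both differentiating clusters (5.39 to 60.1 and 6.31 to 55.6 CPM). A further finer cluster that stayed unnamed, with muscle markers among its genes, went from 9.69 to 117 CPM. In female-like cells Fgf5 was 9.23 CPM in the control and 53.0 CPM in the mutant library, and in male-like mutant cells it was 87.0 CPM.

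Fgf5 was also called higher in mesenchyme-like cells, from 0.503 to 7.76 CPM, and in epithelium-like cells, from 0 to 5.66 CPM. With the epithelial control entered at 3 counts the latter was 7.74-fold higher. That call was kept under 7 of the 11 other settings that gave a value. In the mutant library the mesenchyme- and epithelium-like levels were 10.7% and 7.83% of the Fgf5 level in muscle-like cells. The muscle markers Pax7, Myf5, Msc and Chrna1 stood at 2.11 to 6.22% and 1.47 to 6.88% of their muscle level in the same 2 classes. Fgf5 in mesenchyme-like cells was thus above the level at which muscle RNA appeared there, in epithelium-like cells it was close to it, and in EC-like cells (1.89%, markers 0.590 to 1.74%) it was near that background.

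Fgf9 in muscle-like cells was called higher, at 28.5 CPM in control and 59.0 in mutant cells (log2 ratio 1.05, interval 0.91 to 1.19). The ratio was largest in a differentiating cluster, from 14 to 59.5 CPM. In epithelium-like cells Fgf9 was 21.2 CPM in control and 28.3 in mutant cells and was not called. In their stratifying cluster Fgf9 was 13.2 and 32.8 CPM and was called higher (log2 ratio 1.31, interval 0.81 to 1.84). In mesothelium-like cells, the strongest control source, Fgf9 was 77.3 CPM in control and 50.9 in mutant cells, which was not called.

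Fgf10 differed in opposite directions between classes. In muscle-like cells it went from 15.2 to 36.6 CPM (log2 ratio 1.27, interval 1.08 to 1.46), with a higher level in all 4 finer muscle clusters. In mesenchyme-like cells it went from 45.9 to 13.2 CPM (log2 ratio -1.80, interval -2.06 to -1.55). Mesenchyme-like cells were thus the leading source in the control library, whereas in the mutant library neuron-like (41.4 CPM) and muscle-like cells stood above them. The neuron-like level came from 65 of 468 mutant cells. It was 82.8 CPM in the mutant cells of the cluster with Neurod1 among its leading genes and 21.8 CPM in the largest neuron-like cluster.

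Within mesenchyme Fgf10 was lower in each of the 3 largest finer clusters. 2 of these carried lung and foregut markers, and their Fgf10 went from 56.9 to 15.3 CPM and from 126 to 18.5 CPM. In the largest cluster of general mesenchyme it went from 30.4 to 14.9 CPM. The cluster at 126 CPM was shallow, with a median of 8317 UMIs in control and 7065 in mutant cells. The first of the lung and foregut clusters held 350 control and 79 mutant cells, so the class also had fewer of these cells in the mutant library. Finer clusters with at least 20 cells in each library were also weighted alike in both libraries, by their number of control cells. With this weighting the log2 ratio was -1.79. With cells classed one by one from the share of each marker list that they expressed, it was -0.48 and no longer called. Both sexes gave a lower level than the control, with 17.2 CPM in female-like and 12.7 CPM in male-like mutant cells.

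In epithelium-like cells Fgf10 went from 23.4 to 6.93 CPM, but 78 of the 96 control UMIs came from the otic-like cluster of 35 control and 15 mutant cells. In the stratifying cluster that held most epithelium-like cells Fgf10 was 5.40 CPM in control and 5.59 in mutant cells. In EC-like cells Fgf10 went from 0 to 2.52 CPM, with 35 UMIs in 20 of 698 cells. With the control entered at 3 counts this was 2.74-fold higher (log2 ratio 1.45, lower end of the interval 1.08). With high-scoring doublets removed Fgf10 was not called.

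Other mesenchymal ligands were lower too. Of 27 members tested in mesenchyme-like cells 3 were called higher (Fgf5, Fgf15 and Fgf21) and 6 lower (Fgf2, Fgf7, Fgf10, Fgf16, Fgfr4 and Spry4), against 5.72% and 3.95% of all 16057 genes tested. Fgf2 went from 12.8 to 2.79 CPM (log2 ratio -2.20, interval -2.78 to -1.67), and its level in mesothelium-like cells was 20.2 CPM in control and 26.3 in mutant cells. Fgf7 went from 20.3 to 8.72 CPM, and from 38.0 to 13.9 CPM in the general mesenchyme cluster, but in female-like cells its log2 ratio was -0.36 and not called. In the differentiating muscle cluster with the highest Fgf7 the level was 33.1 CPM in control and 47.1 in mutant cells. Fgf16, an X-linked ligand of the Fgf9 group, went from 3.67 to 1.05 CPM in mesenchyme-like cells, on 73 control and 12 mutant UMIs. This call was lost under 5 of 13 other settings. The log2 ratio was -0.71 where cells were classed one by one from the share of each marker list that they expressed. Its level was 3.68 CPM in female-like control, 0.990 in female-like mutant and 1.24 in male-like mutant cells. Fgf18, the cartilage and bone ligand, was 7.75 CPM in control and 6.80 in mutant mesenchyme-like cells and was not called in any class.

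**Figure D2:**
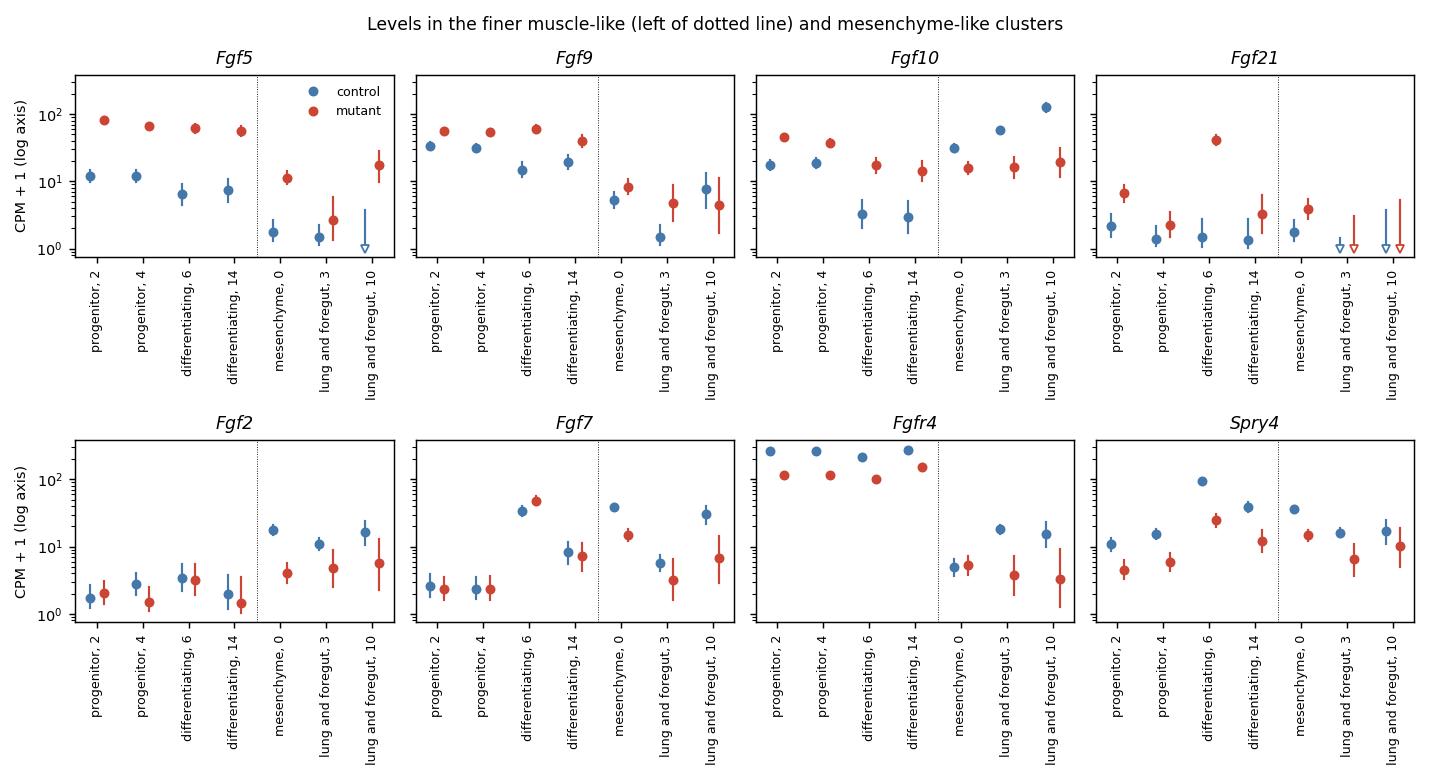
Level (CPM + 1, log axis) of 6 ligands, Fgfr4 and Spry4 in the 4 finer muscle-like clusters (left of the dotted line) and the 3 largest mesenchyme-like clusters, for the control (blue) and mutant (red) library, with 95% exact Poisson intervals and open triangles at 0 UMIs. Fgf5 was higher and Fgfr4 and Spry4 were lower in the mutant library in all 4 muscle clusters, Fgf10 was higher in muscle and lower in mesenchyme, and Fgf21 stood out in 1 differentiating cluster at 39.7 CPM.

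The endocrine ligands were rare and concentrated. Fgf21, a hormone of fasting and a known product of stressed muscle, went from 0.643 to 9.26 CPM in muscle-like cells (log2 ratio 3.85, interval 3.09 to 4.72). It lay mostly in 1 differentiating cluster, with 2 UMIs in the control (0.490 CPM) and 128 UMIs in the mutant library (39.7 CPM). Only 39 of 838 mutant muscle-like cells held a Fgf21 UMI, the 10 richest cells held 72.6% of its UMIs, and 1 cell held 39 of 179. The level was 15.4 CPM in male-like mutant cells and 0.972 CPM in female-like mutant cells, against 0.654 CPM in female-like control cells, so the difference was that of the male-like cells.

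Fgf23, a hormone of phosphate balance made mainly by bone, had 234 of its 258 UMIs in the mutant library in EC-like cells. It had 0 UMIs in 148 control EC-like cells and 234 UMIs in 77 of 698 mutant cells, at 16.8 CPM. With the control entered at 3 counts this was 18.3-fold higher. After thinning to 5000 UMIs 6.01% of mutant EC-like cells held a Fgf23 UMI, against 0.252% of mutant muscle-like cells. The control had it in 0 of 145 EC-like cells, where 3 counts would be a share of 2.07% and the exact 95% interval reaches 2.51%. The UMIs were spread over cells more widely than for Fgf21, with 45.3% in the 10 richest cells. Of the 234 UMIs 227 lay in the largest endothelial cluster, which had Aplnr, Emcn, Fabp4 and Cldn5 among its leading genes and raised 4 of 6 endocardial markers, at 19.9 CPM, while the arterial cluster had 1.05 CPM and the lymphatic cluster 4.74 CPM on 4 UMIs. Fgf23 was present in both sexes of the mutant pool, at 6.70 CPM in female-like and 23 CPM in male-like EC-like cells.

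Fgf15, the mouse intestinal hormone that is also expressed in embryonic neural tissue, was highest in neuron-like cells, at 8.09 CPM in control and 14.5 in mutant cells. In muscle-like cells it went from 0.429 to 5.79 CPM, with 82 of the 112 mutant UMIs in 16 cells of 1 progenitor cluster. Its call in mesenchyme-like cells rested on 6 mutant cells with 18 UMIs.

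The upstream sequences of 3 of these ligands are given for 3 ligands called higher in the mutant library, chosen after their values were seen: Fgf5 and Fgf21 in muscle-like cells and Fgf23 in EC-like cells. Each line holds the 250 bases before the RefSeq gene start (GRCm38.p6), read 5′ to 3′ on the gene's strand. Capitals mark matches on either strand to ACGTG or GCGTG (cores of the hypoxia response element), CCGGAA (core bound by ETS factors such as Etv4 and Etv5) or TGATGNAA (the element bound by Atf4 with C/EBP factors). The motifs were chosen after the values were seen.

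Fgf5, chr5:98253934-98254183, plus strand: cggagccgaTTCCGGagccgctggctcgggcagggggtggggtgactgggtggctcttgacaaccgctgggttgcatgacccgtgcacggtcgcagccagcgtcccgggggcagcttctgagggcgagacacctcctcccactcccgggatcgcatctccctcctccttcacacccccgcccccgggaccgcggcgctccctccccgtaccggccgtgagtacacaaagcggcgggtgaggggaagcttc

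Fgf21, chr7:45615491-45615740, minus strand: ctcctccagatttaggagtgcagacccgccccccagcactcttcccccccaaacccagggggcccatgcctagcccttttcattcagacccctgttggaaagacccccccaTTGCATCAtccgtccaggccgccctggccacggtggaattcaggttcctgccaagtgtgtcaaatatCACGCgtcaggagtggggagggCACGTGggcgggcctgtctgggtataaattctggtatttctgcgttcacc

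Fgf23, chr6:127072652-127072901, plus strand: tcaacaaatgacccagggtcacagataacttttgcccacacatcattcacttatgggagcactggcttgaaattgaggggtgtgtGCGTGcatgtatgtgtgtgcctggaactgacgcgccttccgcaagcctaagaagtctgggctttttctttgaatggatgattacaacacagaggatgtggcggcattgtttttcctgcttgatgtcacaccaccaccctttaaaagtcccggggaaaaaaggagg

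Fgf21 held a TGATGNAA match on the minus strand, a GCGTG match and 2 overlapping ACGTG matches, 1 on each strand. Fgf5 held a CCGGAA match and Fgf23 a GCGTG match. Of all 32851 RefSeq upstream windows of this length 16.6% held ACGTG, 28.2% GCGTG, 12% CCGGAA and 3.45% TGATGNAA. Over the 33 member windows, from 25 members and without those on chromosome 18, 5 held ACGTG, 14 GCGTG, 3 CCGGAA and 1, that of Fgf21, TGATGNAA. A match describes the letters of the window and not a site in use.

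The FGF homologous factors, which bind voltage-gated sodium channels rather than receptors, were lower in several classes. Fgf13 was highest in neuron-like cells and went there from 382 to 145 CPM (log2 ratio -1.39, interval -1.51 to -1.28), and in 1 neuron-like cluster from 566 to 177 CPM. In the largest neuron-like cluster it was 187 CPM in control and 143 in mutant cells. In EC-like cells it went from 31.9 to 6.40 CPM, and in epithelium-like cells from 65.7 to 35.9 CPM, a call lost under 6 of 13 other settings with a log2 ratio as near 0 as -0.24. Fgf13 is X-linked, and in EC-like cells it was 33.3 CPM in female-like control, 8.59 in female-like mutant and 4.0 in male-like mutant cells, so it was lower within female-like cells too. At full depth 39 of 148 control and 58 of 698 mutant EC-like cells held a Fgf13 UMI.

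Fgf12 was called lower in 4 classes and higher in 1. It went from 152 to 49.9 CPM in neuron-like cells, from 78.5 to 16.0 CPM in cardiomyocyte-like cells and from 12.4 to 5.43 CPM in muscle-like cells. In EC-like cells it went from 7.97 to 2.01 CPM, where 13 of 148 control cells held all 26 control UMIs. In female-like cardiomyocyte-like cells the log2 ratio was -0.40 and not called. In mesothelium-like cells Fgf12 went from 8.74 to 29.8 CPM, on 19 and 34 UMIs. Fgf14 went from 1.71 to 4.5 CPM in muscle-like cells and from 15 to 2.77 CPM in cardiomyocyte-like cells, where 2 control cells held all 13 control UMIs. In mutant muscle-like cells 10 cells held 62 of the 87 Fgf14 UMIs. Among the finer muscle clusters Fgf14 was called in 1 differentiating cluster alone, from 0.245 to 14.9 CPM. In the other differentiating cluster it was 1.26 CPM in control and 0.445 in mutant cells. Fgf11 was called higher in muscle-like cells (1.93 to 4.66 CPM) and in epithelium-like cells (1.70 to 6.02 CPM). The epithelial call rested on 7 control and 33 mutant UMIs and was kept under 8 of 13 other settings.

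Of 25 members tested in neuron-like cells 0 were called higher and 5 lower, against 2.42% and 7.45% of all 14242 genes. The 5 were Fgf12, Fgf13, Fgfr4, Etv4 and Etv5. The Fgfr4 call was kept under 9 and the Etv4 call under 8 of 13 other settings. In cardiomyocyte-like cells 14 members could be tested, and Fgf12 and Fgf14 were called lower and none higher, against 4.12% and 1.71% of 9774 genes.

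Among the receptors Fgfr1 and Fgfr2 were broad and Fgfr4 was a receptor of the muscle class. Fgfr2 was highest in epithelium-like cells, at 319 CPM in control and 345 in mutant cells, and within mesenchyme it was highest in the cartilage cluster, at 319 and 499 CPM. It was not called in any of the 7 classes, with log2 ratios between -0.73 in cardiomyocyte-like and 0.64 in mesothelium-like cells. Fgfr1 was highest in mesenchyme-like cells, at 110 CPM in both libraries with a log2 ratio of 0.00 (-0.10 to 0.10). This class value joined clusters that differed. Without being called, Fgfr1 was 154 CPM in control and 118 in mutant cells of the general mesenchyme cluster. Fgfr1 was 61.0 and 75.3 CPM in the larger lung and foregut cluster, again not called. It was called lower in epithelium-like cells (61.1 to 32.8 CPM), a call lost under 6 of 13 other settings with a log2 ratio as near 0 as -0.28, and 1 differentiating muscle cluster went from 69.1 to 32.9 CPM. Fgfr3 was concentrated in the cartilage cluster, where it was 103 CPM in control and 79.7 in mutant cells, and was not called in any class.

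Fgfr4, the receptor of muscle progenitors, went from 279 to 127 CPM in muscle-like cells (log2 ratio -1.13, interval -1.20 to -1.07). The share of thinned cells with a Fgfr4 UMI was 73.9% in the control and 43.2% in the mutant library. The lower level was seen in both progenitor clusters (260 to 116 and 260 to 115 CPM) and in both differentiating clusters (216 to 101 and 272 to 152 CPM). It was the same in both sexes of the mutant pool, at 131 CPM in female-like and 127 CPM in male-like cells. Among thinned mutant muscle-like cells 28.3% of those with a Fgfr4 UMI and 23.1% of those without one held a Fgf5 UMI. Both genes were found in 97 of these cells, where 86.8 would hold both if the genes were independent. In thinned control muscle-like cells the shares were 3.88% and 4.82%.

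Fgfr4 was also called lower in mesenchyme-, epithelium- and neuron-like cells, where it was 11.7, 21.7 and 7.58 CPM in the control library. Those levels were 4.2%, 7.76% and 2.71% of the control muscle level. The 4 muscle markers stood there at 1.69 to 3.70%, 3.30 to 7.43% and 1.47 to 6.46% of theirs. Over the whole classes Fgfr4 was thus slightly above the marker range in mesenchyme- and epithelium-like cells and inside it in neuron-like cells, and the part of muscle RNA in these calls was not tested. The finer clusters differed. In the larger lung and foregut cluster the control level of 17.3 CPM was 6.19% of the muscle level, above the 0.516 to 2.05% of the markers, and went to 2.73 CPM in the mutant library. In the cartilage cluster 34.5 CPM in control cells was 12.4% of the muscle level against 1.16 to 5.72% for the markers, with 11.2 CPM in mutant cells. In the general mesenchyme cluster Fgfr4 was 3.90 and 4.31 CPM, 1.40% of the muscle level in the control, which was below the markers. In the stratifying epithelium cluster Fgfr4 was at 6.99% of the control muscle level and the markers at 2.42 to 5.28%. In other finer clusters it lay inside the control marker range. The smaller lung and foregut cluster, where Fgfr4 was called lower, had 5.21% against 1.60 to 12.7% for the markers. The largest neuron-like cluster had 1.83% against 1.65 to 8.98%, and the one with Neurod1 among its leading genes had 3.61% against 1.08 to 11.2%.

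**Figure D3:**
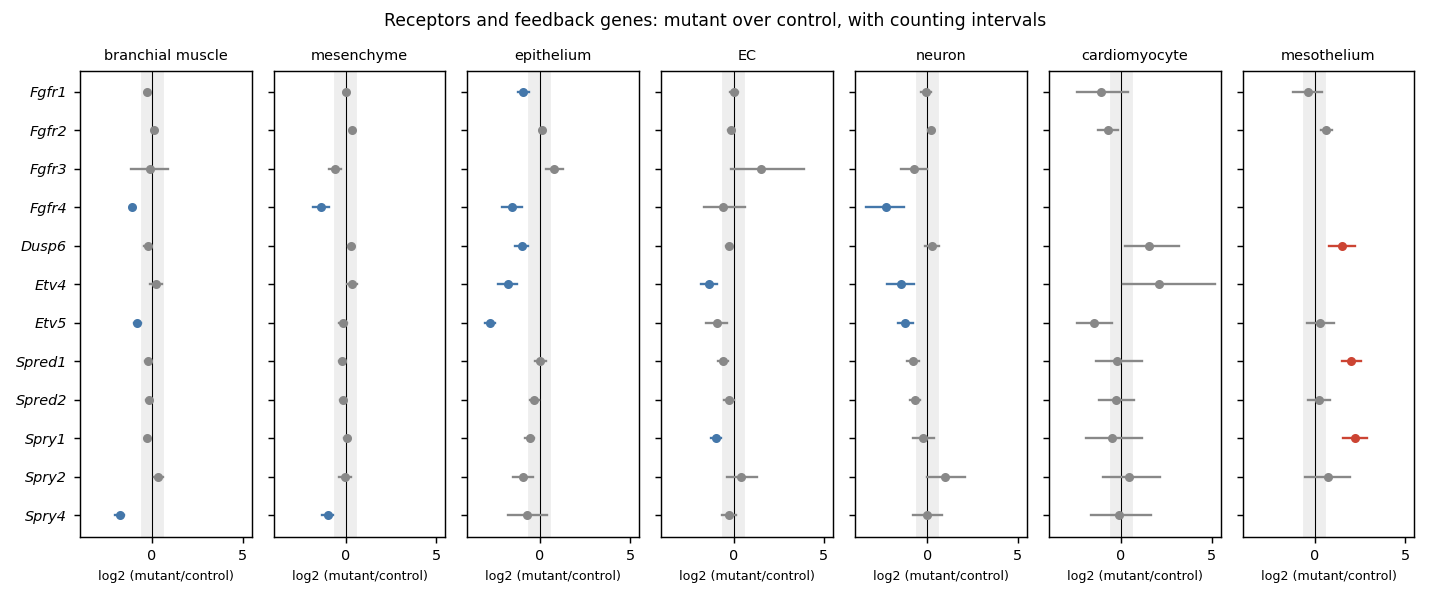
Log2 ratio of mutant over control CPM for 4 receptors and 8 feedback genes (Spry3 was under 20 UMIs in every class) in the 7 classes, with 95% counting intervals; grey shading spans 1.5-fold either way, blue marks members called lower, red members called higher and grey the others, and members under 20 UMIs or with a library at 0 are left out. Etv5 in epithelium had the lowest value at -2.75, Fgfr1 and Fgfr2 lay near 0 in most panels, and red points appeared in mesothelium alone.

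The feedback genes can be induced through ERK by other receptors too, and ERK activity itself was not measured here. Their median log2 ratio lay below that of all genes tested in 6 of the 7 classes, at -0.42 in EC-like (all genes -0.07), -0.11 in mesenchyme-like (0.01), -0.24 in muscle-like (0.02), -0.80 in epithelium-like (-0.05), -0.45 in neuron-like (-0.08) cells, and it was -0.18 in cardiomyocyte-like cells (-0.05). In mesothelium-like cells it was 1.09 (0.05), over 6 genes. The members did not move together: in muscle-like cells Spry4 and Etv5 were called lower while Spry2 and Etv4 had log2 ratios of 0.33 and 0.21, and in mesenchyme-like cells only Spry4 was called. In the general mesenchyme cluster Dusp6 had a log2 ratio of 0.77 and Spry4 one of -1.35. A separate list of 10 other genes that ERK induces had medians of 0.74 in muscle-, 0.57 in mesenchyme- and 0.34 in EC-like cells. Its medians were -0.53 in epithelium-, -0.17 in neuron-, -0.02 in cardiomyocyte- and 0.04 in mesothelium-like cells.

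Epithelium-like cells had the lowest median of the feedback genes. Of 25 members tested 3 were called higher (Fgf5, Fgf8 and Fgf11) and 7 lower (Fgf10, Fgf13, Fgfr1, Fgfr4, Dusp6, Etv4 and Etv5), against 3.54% and 3.87% of all 13711 genes. Etv5, an ETS factor downstream of FGF receptors in branching epithelia, went from 148 to 21.9 CPM (log2 ratio -2.75, interval -3.05 to -2.47). The share of thinned cells with an Etv5 UMI was 27.4% in the control and 7.37% in the mutant library. In the stratifying cluster it went from 170 to 28.2 CPM, and it was lower than the control 150 CPM in both female-like (10.1 CPM) and male-like (27.8 CPM) mutant cells. The 10 richest epithelium-like cells held 43.7% of the Etv5 UMIs in the control and 53.3% in the mutant library.

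Its relative Etv4 went from 27.3 to 8.03 CPM and Dusp6 from 42.6 to 21.3 CPM in epithelium-like cells. The Dusp6 call was lost under 5 of 13 other settings, and in the stratifying cluster Dusp6 went from 42 to 25.7 CPM. Spry1 (77.7 to 52.9 CPM) and Spred2 (60.9 to 49.4 CPM) were not called, and Spred1 was 44.6 CPM in control and 45.8 in mutant cells. The receptor Fgfr2 was not lower in the same cells. Fgf8, an epithelial ligand of the pharyngeal arches, went from 1 UMI to 37 UMIs, a ratio of 0.243 to 6.75 CPM with a log2 interval of 2.23 to 10.13, but all 37 UMIs came from 9 cells and 25 of them from 1 cell.

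Spry4 was lower in both muscle- and mesenchyme-like cells. In muscle-like cells it went from 31.1 to 8.95 CPM (log2 ratio -1.80, interval -2.04 to -1.55), and the control level was highest in a differentiating cluster, which went from 93.1 to 23.9 CPM. In mesenchyme-like cells it went from 22.9 to 11.4 CPM. Spry4 was 10.8 CPM in female-like and 7.49 CPM in male-like mutant muscle-like cells. Etv5 in muscle-like cells went from 30.1 to 17.1 CPM, a call kept under 9 of 13 other settings, and Dusp6 from 25.2 to 21.3 CPM without being called.

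EC-like cells held the endothelial cells that the study follows. Of 19 members tested 2 were called higher (Fgf10 and Fgf23) and 4 lower (Fgf12, Fgf13, Etv4 and Spry1), against 4.67% and 4.72% of all 14184 genes tested. Etv4 went from 20.9 to 8.13 CPM (log2 ratio -1.36, interval -1.81 to -0.90), and Spry1 from 52.7 to 26.8 CPM (log2 ratio -0.98, interval -1.24 to -0.71). The Spry1 call was kept under 10 of 13 other settings, with a log2 ratio as near 0 as -0.42. Both genes were called lower in the largest endothelial cluster, from 23.2 to 8.31 CPM for Etv4 and from 61.3 to 30.9 CPM for Spry1. In the arterial cluster Spry1 was 29.3 CPM in control and 25.3 in mutant cells. That cluster held 36 control cells, under the minimum of 50, so it was not compared. Dusp6 (141 and 116 CPM), Spred1 (45.7 and 30.8), Spred2 (41.4 and 34.3), Spry4 (23.6 and 19.6), Etv5 (11.7 and 6.11) and Spry2 (4.91 and 6.55) were not called, nor were the 4 receptors. Fgfr1 was 60.4 and 61.0 CPM and Fgfr2 123 and 112 CPM.

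Other FGF pathway genes are read against the same 4.67% and 4.72% of all genes in EC-like cells. Among 20 cofactors tested (Klotho proteins, binding proteins, Flrt, syndecan, glypican and heparan sulphate enzyme genes) 2 were called higher, Flrt2 and Sdc4, and 0 lower. Among 20 transducers from Frs2 to the ERK kinases only Shc1 was called higher. Of 10 other genes that ERK induces 3 were higher (Dusp5, Phlda1 and Ier3) and 2 lower (Etv1 and Ccnd1), and of 8 immediate early genes, which also answer to cell dissociation, 1 was higher (Atf3). ERK-induced genes thus stood on both sides in EC-like cells, with Etv4, Spry1, Etv1 and Ccnd1 lower and Dusp5, Phlda1 and Ier3 higher.

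Mesothelium-like cells were the 1 class where feedback genes were called higher, on the fewest mutant UMIs of the 7 classes (1139838). Of 16 members tested 4 were called higher (Fgf12, Dusp6, Spred1 and Spry1) and 0 lower, against 7.35% and 2.49% of 10952 genes. Spry1 went from 12.4 to 57.0 CPM (log2 ratio 2.20, interval 1.53 to 2.90), Spred1 from 20.2 to 81.6 CPM and Dusp6 from 12.9 to 36.0 CPM. The 10 richest mutant cells held 78.5% of the Spry1, 64.5% of the Spred1 and 78.0% of the Dusp6 UMIs. In the control library the 10 richest cells held 74.1%, 59.1% and 75%. The Dusp6 call was kept under 9 of 13 other settings, with a log2 ratio as near 0 as 0.52. The median depth of these cells was 28114 UMIs in the control and 14430 in the mutant library, and 4 of 8 immediate early genes were lower in the mutant cells.

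**Figure D4:**
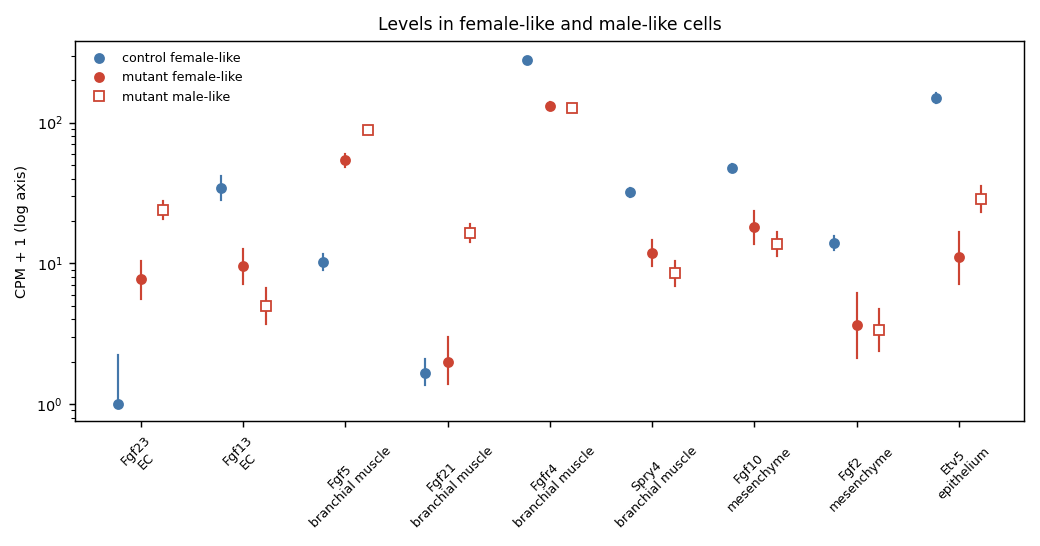
Level (CPM + 1, log axis, 95% exact Poisson intervals) of 9 member and class pairs in female-like control cells (blue), female-like mutant cells (filled red) and male-like mutant cells (open red). The mutant points of both sexes lay on the same side of the control, but for Fgf21 the female-like mutant level (0.972 CPM) was near the control (0.654 CPM) and the male-like level was 15.4 CPM.

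The members not yet described were rare or did not differ by the rule. Fgf1 was at most 12.9 CPM in the 7 classes and was not called in any, with the lowest log2 ratio of -1.52 (-2.66 to -0.43) in neuron-like cells. Fgf6, a ligand of skeletal muscle, was called higher in muscle-like cells on 6 control and 25 mutant UMIs and was otherwise nearly absent from the counts. Fgf17 was mainly epithelial, at 1.95 CPM in control and 4.38 in mutant cells. Fgf4, Fgf22 and Spry3 had fewer than 20 UMIs in each of the 7 classes. Over all 35 members and 7 classes 48 member and class pairs were called, and Fgfr2, Fgfr3, Fgf1, Fgf3, Fgf17, Fgf18, Fgf20, Spred2 and Spry2 were tested in at least 1 class and called in none.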

How the data were processed

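The deposited files hold UMI counts per gene and cell that the authors made with Cell Ranger 7.1.0 on GRCm38 (mm10) from a 10x Genomics 5′ library of each genotype; the annotation release and intron counting are not given in the sources used here. The members and gene lists were chosen with earlier results of these data known. Cells were filtered as above, integrated and clustered with Seurat 5.3.0 (2000 variable genes without the members and listed context genes, 30 components, resolution 0.3 for classes and 0.8 for finer clusters). A cluster was named when at least 3 markers of a list were raised and no other list rivalled it. Doublets were called in 0 control and 1 mutant cells by the caller's own threshold, so high scores were removed only as an alternative. Raw counts were summed per class and library. Ratios have conditional exact binomial, levels exact Poisson and shares exact Clopper-Pearson intervals at 95%. A library at 0 entered at 3 counts. Every member is named, and pathway genes where called in EC-like cells. EC-like sums of 14184 genes were also simulated with counting error alone. Of genes changed 4-fold 94.0% were called for changes up and 86% for changes down. Of those changed 2-fold 50.0% were called up and 46% down, and of unchanged genes 0.0215% were called. Differences between cells, embryos or libraries were not simulated, so these rates do not cover them.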

Additional observations from a re-analysis of the deposited data

Results flagged for a closer look

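5 members were called in opposite directions in different classes. The difference between the classes was not tested, since each class has 1 library per genotype. Fgf10 had log2 ratios of 1.45 in EC-like (0 control UMIs entered at 3 counts) and 1.27 in branchial muscle-like cells. It had -1.80 in mesenchyme-like and -1.75 in epithelium-like cells. Fgf12 had -1.98 in EC-like, -1.19 in branchial muscle-like, -1.61 in neuron-like cells, -2.30 in cardiomyocyte-like cells and 1.77 in mesothelium-like cells. Fgf14 had 1.39 in branchial muscle-like and -2.44 in cardiomyocyte-like cells, and few cells held most of its UMIs in both classes. Dusp6 had -1.0 in epithelium-like and 1.48 in mesothelium-like cells, and Spry1 had -0.98 in EC-like and 2.20 in mesothelium-like cells.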

How the results depend on the processing

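No paired analysis was possible because each genotype has 1 library. Each value was recomputed under 12 other settings, and under 1 chosen after seeing the data (only the male-like cells of the mutant, with the whole control). Of the 48 member and class pairs called, 14 kept their call under every setting that gave a value, and 2 reversed under 1 each: Fgf15 in mesenchyme-like cells at -0.31 in female-like cells, and Fgf10 in epithelium-like cells at 0.049 with finer clusters weighted alike, where only the stratifying cluster had enough cells to enter. Calls were lost most often under 3 settings, 23 of 45 in cells thinned to 5000 UMIs, 19 of 48 in female-like cells and 16 of 48 at a minimum of 100 UMIs. In female-like cells the log2 ratios themselves also moved, to 0.58 for Fgf21 in muscle-like cells (5.04 at the other end), -0.36 for Fgf7 in mesenchyme-like cells and -0.40 for Fgf12 in cardiomyocyte-like cells, and the cause was not tested. In EC-like cells the 2 members called higher became 1 with doublets removed, with thinning, in female-like cells and at 100 UMIs, and 4 with the mean over cells, and the 4 called lower became 2 with thinning. The feedback median under thinning was -0.48 in muscle-like cells, 2.60 in cardiomyocyte-like cells (1 gene) and 2.76 in mesothelium-like cells (3 genes). Shares at full depth in control and mutant cells were 12.9% and 49.5% for Fgf5 and 96.5% and 79.0% for Fgfr4 in muscle-like cells and 42.5% and 14.8% for Etv5 in epithelium-like cells, and 11% for Fgf23 in mutant EC-like cells. In female-like mutant cells thinned to 5000 UMIs the shares were 3.08% for Fgf23 and 21% for Fgf5. These compare with the shares of thinned cells given above, not with those at full depth. The few cells of the cardiomyocyte- and mesothelium-like classes, and so their few summed UMIs, limit calls there to large ratios.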
